A study of Mus musculus with 12 samples.

Results

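The cells described here are 166 cells from mouse mammary tumors that carried transcripts of 3 fibrillar collagen chains and no transcript of the leukocyte or epithelial marker used to set them apart, called collagen cells below. They were drawn from 34445 cells with at least 200 detected genes in 2 single-cell matrices. A member had at least 2 unique molecular identifiers (UMIs, each standing for 1 captured transcript) of each of Col1a1, Col1a2 and Col3a1, the chains of collagens I and III, and 0 UMIs of both Epcam, an epithelial adhesion molecule, and Ptprc, which encodes the leukocyte antigen CD45. The members made up 0.482% of all cells (95% exact Clopper-Pearson interval 0.412 to 0.561%). Since the UMI counts of these genes chose the members, every level given for them is a description and none of it was tested.

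Fibroblasts are the matrix-building cells of connective tissue. In tumors they secrete collagens, proteoglycans and glycoproteins, the enzymes that crosslink or cut them, and chemokines that attract leukocytes. Pericytes, which lie along capillaries and carry Rgs5, Notch3 and Cspg4 transcripts, also make collagen, so that collagen transcripts alone do not separate them from fibroblasts, which carry Pdgfra, Dcn and Lum.

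The study compared tumors of female MMTV-PyMT mice, in which the mammary tumor virus promoter drives the polyoma middle T oncogene in mammary epithelium, on a B6(Cg) background with either wild-type PAR2 or PAR2 G37I, a receptor mutant that coagulation factor Xa cannot signal through. There were 3 wild-type and 3 PAR2 G37I samples of CD11c-selected cells, taken from late-stage tumors, and the same numbers of CD4/CD8-selected cells, taken from mid-size tumors. Digested tumors were bead-selected, frozen, thawed and run on the 10x Genomics platform, so collagen cells were carried through a selection aimed at leukocytes. Each matrix used here pools its 6 samples, and no map from cells to samples was used here, hence each matrix is 1 sample, wild-type and PAR2 G37I cells were not compared here, and the selection and the tumor stage cannot be told apart.

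Collagen cells were found in both matrices. They numbered 93 of 11639 CD11c-selected cells (0.799%, 95% exact interval 0.645 to 0.978%) and 73 of 22806 CD4/CD8-selected cells (0.320%, 0.251 to 0.402%). Each matrix holds 6 runs of barcodes that carry no sample label. Among CD11c-selected cells the runs held 24, 14, 35, 4, 1 and 15 collagen cells in file order, or 0.0384 to 1.73% of a run. Among CD4/CD8-selected cells they held 2, 6, 33, 12, 19 and 1, or 0.0199 to 0.973%. A single run thus supplied 35 of the 93 and 33 of the 73. No member's barcode occurred in another run of its matrix, although 68 and 50 barcodes of all cells did, and 90 barcodes occurred in both matrices, 1 of them a member's.

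**Figure D1:**
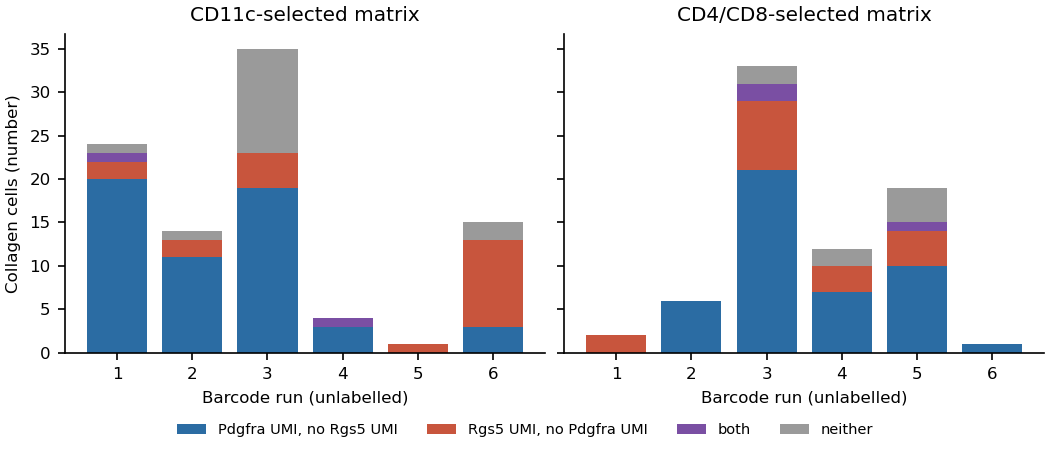
Number of collagen cells in each of the 6 unlabelled barcode runs of the CD11c-selected matrix (left) and the CD4/CD8-selected matrix (right), split by whether a cell held Pdgfra UMIs, Rgs5 UMIs, both or neither. Run 3 held the most collagen cells in each matrix (35 and 33), and the run with the most Rgs5 cells without Pdgfra in the CD11c-selected matrix was run 6, with 10 of its 15.

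The collagen cells held more UMIs than most cells. Their UMIs per cell had a median of 13277 (305 to 47261) among CD11c-selected cells and 15414 (3149 to 38943) among CD4/CD8-selected cells, against medians of 7943 and 4361 over all cells of each matrix. Under 2000 UMIs were found in 12 CD11c-selected members and in 0 CD4/CD8-selected ones. In total the members held 1534056 and 1134905 UMIs. Levels below are UMIs of a gene summed over a class of cells per 1,000,000 UMIs of that class (CPM), with 95% exact Poisson intervals, and all intervals cover counting error only.

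The rule genes themselves spanned a wide range. In the CD11c-selected members the lowest, median and highest UMIs were 2, 59 and 1468 for Col1a1, 2, 63 and 827 for Col1a2, and 2, 115 and 1675 for Col3a1. In the CD4/CD8-selected members they were 2, 46 and 732, then 2, 61 and 520, then 4, 121 and 1582. The 3 collagens took a median of 2.59% of a CD11c-selected member's UMIs (0.0641 to 24.5%) and 2.16% of a CD4/CD8-selected member's (0.305 to 7.62%). The highest share belonged to a member with 579 UMIs. Among Ptprc cells, 1.63 to 12.5% of a CD11c-selected run and 0.149 to 3.40% of a CD4/CD8-selected run held any UMI of the 3.

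Few cells lay at the edge of the rule. Just inside it, 6 CD11c-selected and 3 CD4/CD8-selected members had exactly 2 UMIs of their least abundant collagen, with median Col3a1 of 5.5 and 12 UMIs. Just outside it, 3 and 4 cells without Ptprc or Epcam had 1 UMI of the least abundant collagen. Another 9 and 12 cells passed the collagens with at least 1 Ptprc UMI, and 11 and 10 with at least 1 Epcam UMI, and these stayed in the comparison classes.

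The classes set beside the collagen cells were the 9198 and 20529 cells with at least 1 Ptprc UMI (Ptprc cells) and the 1437 and 2261 cells with at least 1 Epcam UMI (Epcam cells). Of the Epcam cells, 70.6% in the CD11c-selected matrix and 81.8% in the CD4/CD8-selected matrix also held Ptprc. Counts of genes against Epcam cells are therefore not counts against epithelial cells alone. Levels in the 423 and 412 Epcam cells without Ptprc are given for some genes only. A gene was compared where its mean level over the 3 classes was at least 10 CPM, and was counted as higher or lower at 4-fold or more, with sums below 3 UMIs set to 3. A gene can pass this filter through the collagen cells alone, so a count of higher genes in a list is in part set by the filter. Genes under 10 CPM in both other classes could pass only that way, and their number is given with most lists. The lists of genes by role below were drawn up with earlier results of these data known.

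Against Ptprc cells, 1038 of 8321 genes were higher in the CD11c-selected collagen cells (12.5%) and 812 were lower (9.76%). In the CD4/CD8-selected matrix 1317 of 8492 were higher (15.5%) and 847 lower (9.97%). Against Epcam cells, 759 were higher (9.12%) and 837 lower (10.1%) in the CD11c-selected matrix, and 801 were higher (9.43%) and 876 lower (10.3%) in the CD4/CD8-selected matrix. The rule used these contrasts, so the shares are the background for the counts that follow and nothing is read from them.

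Fibrillar collagens are the rope-forming chains and include the 3 rule genes. Without the rule genes, 5 of 5 genes compared were higher than in Ptprc cells and 4 of 5 higher than in Epcam cells in each matrix. Of those 5, 3 were under 10 CPM in both other classes. With the rule genes, which chose the members, the summed level of the list was 36758 and 31018 CPM, against 58.1 and 83.6 CPM in Ptprc cells. Col3a1 stood at 16110 CPM in the CD11c-selected and 14948 CPM in the CD4/CD8-selected collagen cells, against 22.0 and 29.4 CPM in Ptprc cells. Col5a1 and Col5a2, the collagen V chains that start fibril assembly and were not part of the rule, reached 1014 and 1843 CPM in the CD11c-selected members. The exception was Col11a1, a chain found in cartilage and in tumor stroma, whose 45.0 CPM there lay in 7.53% of members and was below the 74.1 CPM of Epcam cells without Ptprc. Col2a1, the cartilage collagen, was at 0 UMIs in both matrices, which allows up to 1.96 and 2.64 CPM by 3 UMIs.

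Of 13 other collagens 11 passed the filter on level and were higher than in either class in both matrices, and 3 and 4 of these were under 10 CPM in both other classes. The basement membrane chain Col4a1 was at 1677 and 1249 CPM, and Col6a1 and Col6a3, chains of the beaded microfibril collagen VI, at 998 and 1190 CPM in the CD11c-selected members. Col14a1, a collagen that binds along fibrils, was found in 74.2% and 74.0% of members.

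The machinery that folds, trims and crosslinks collagen went with the chains. Of 22 such genes compared, 17 and 20 were higher than in Ptprc cells and 17 and 19 higher than in Epcam cells, and none was lower. In each matrix 13 of the 22 were under 10 CPM in both other classes. Serpinh1, the collagen chaperone, was at 1378 and 1624 CPM against 3.53 and 6.18 CPM in Ptprc cells. Pcolce, which speeds removal of the procollagen C-terminus, was at 714 and 783 CPM, and the crosslinking enzyme Lox at 901 and 442 CPM.

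Non-collagen matrix genes showed the same pattern. Of 35 elastic fiber and glycoprotein genes, 34 and 35 were higher than in Ptprc cells, and 32 and 32 higher than in Epcam cells. Among the 35, 17 and 18 were under 10 CPM in both other classes. Sparc, a collagen-binding glycoprotein, was found in 100% of members of both matrices at 7379 and 7515 CPM. Fn1, fibronectin, was at 5053 (95% interval 4941 to 5167) and 4042 CPM, but Ptprc cells also carried it, at 685 and 223 CPM, giving ratios of 7.38 and 18.1. Postn, a matrix protein of remodeling tissue, was at 2942 and 2186 CPM and in 87.1% and 82.2% of members. Of 17 proteoglycan genes, 16 and 17 were higher than in Ptprc cells, and 10 and 11 were under 10 CPM in both other classes. The list was led by the small leucine-rich proteoglycan Dcn at 5497 and 7398 CPM against 8.83 and 10.7 CPM in Ptprc cells.

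Proteases that cut matrix and their inhibitors were carried side by side. Of 19 and 18 such genes compared, 15 and 18 were higher than in Ptprc cells, 1 and 0 lower, and 16 and 18 higher than in Epcam cells. In both other classes 10 and 11 of them were under 10 CPM. The stromelysin Mmp3 was at 993 and 1062 CPM, the gelatinase Mmp2 at 885 and 986 CPM, and the inhibitor Timp1 at 913 and 876 CPM. Timp2, another inhibitor, was only 2.42-fold above Ptprc cells in the CD11c-selected matrix (909 against 375 CPM) and 4.42-fold in the other.

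**Figure D2:**
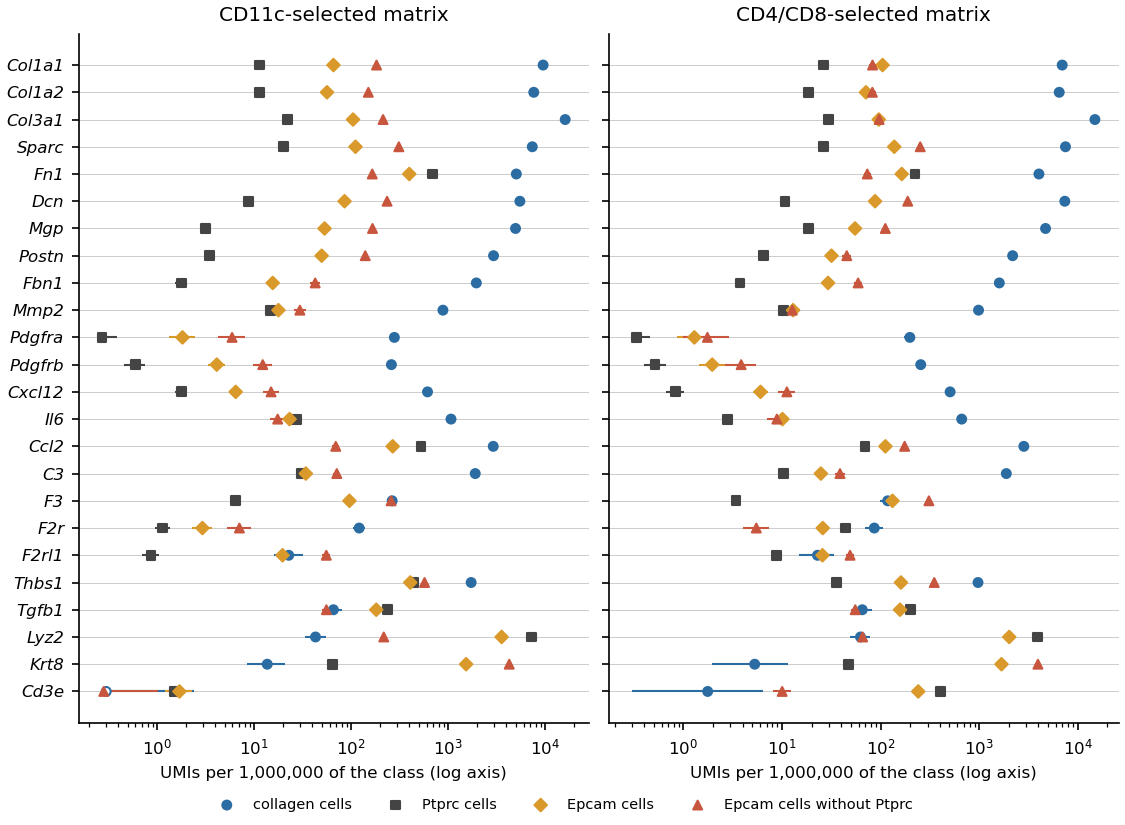
Level of named genes in collagen cells, Ptprc cells, Epcam cells and Epcam cells without Ptprc of each matrix, in UMIs per 1,000,000 of the class on a log axis, with 95% exact Poisson intervals and open symbols at the left for sums of 0 UMIs. Collagen cells sit to the right of the other classes for matrix genes such as Dcn (5497 and 7398 CPM) and to the left of Ptprc cells for Lyz2 (43.0 and 62.6 CPM).

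Apart from the rule genes, the genes that stood highest over both classes in both matrices, among those found in at least 25% of members of each, are given here without the filter on mean level, which Gabra3 missed in the CD4/CD8-selected and B830012L14Rik in the CD11c-selected matrix. The 20 leading genes had a smallest ratio of 144 or more in any of the 4 comparisons with Ptprc cells and with all Epcam cells, and were, in order, Podn, Cilp, Tspan11, Twist2, Nova1, Rarres2, Mfap4, Gabra3, Sfrp4, B830012L14Rik, Lama2, Serpina3n, Serping1, Ndn, Cpxm1, Fgf7, Fbln1, Cygb, Pdgfra and Tmem45a. Podn, a leucine-rich matrix proteoglycan, led with a smallest ratio of 260. Against Epcam cells without Ptprc the ratios went down to 47.1 for Pdgfra, 53.7 for Cygb and 55.6 for Lama2 and Serpina3n in the CD11c-selected matrix. Rarres2, which encodes the leukocyte attractant chemerin, was found in 82.8% and 91.8% of members at 742 and 840 CPM. Lama2, a laminin chain of basement membranes, was in 74.2% and 74.0% of them. Twist2, a transcription factor of mesenchyme, was at 37.8 and 40.5 CPM, against 0.0814 and 0.0818 CPM in Ptprc cells.

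General mesenchymal genes were also higher, with exceptions. Of 16 and 18 compared, 12 and 14 were higher than in Ptprc cells and 1 and 1 lower, and of 13 universal and adventitial fibroblast genes 11 and 13 were higher. Under 10 CPM in both other classes were 11 and 13 of the mesenchymal and 7 and 3 of the universal and adventitial genes. Prrx1, a mesenchymal transcription factor, was in 81.7% and 95.9% of members at 347 and 290 CPM, against 0.552 and 0.613 CPM in Ptprc cells. Thy1, a surface glycoprotein, was 144-fold above Ptprc cells in the CD11c-selected matrix but 1.15-fold in the CD4/CD8-selected one, where Ptprc cells carried it at 370 CPM. S100a4, often used as a fibroblast marker, was below Ptprc cells by less than 4-fold, at 196 and 220 CPM against 681 and 721 CPM. Vim, vimentin, was 1.49-fold and 3.55-fold above Ptprc cells.

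Collagen cells carried transcripts for leukocyte attractants and growth factors. Of the cytokine and chemokine genes compared, 14 of 22 were higher than in Ptprc cells and 2 lower in the CD11c-selected matrix, and 16 of 21 higher and 2 lower in the other. In both other classes 6 and 5 of them were under 10 CPM. Cxcl1, a neutrophil attractant, was at 3178 and 2623 CPM, and the monocyte attractant Ccl2 at 2922 and 2841 CPM. Ccl2 was also carried by CD11c-selected Ptprc cells, at 527 CPM. Il6, a cytokine of inflammation, was at 1072 CPM (1021 to 1125) in 64.5% of CD11c-selected members and at 665 CPM (619 to 714) in 67.1% of the others. Cxcl12, which retains CXCR4-bearing leukocytes, was at 614 and 508 CPM in 67.7% and 75.3% of members, and in 1.15% and 0.166% of Ptprc cells.

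Growth factors for myeloid cells and for epithelium were both present. Csf1, the macrophage growth factor, was at 649 and 474 CPM against 8.90 and 4.03 CPM in Ptprc cells. Il34, the other ligand of the same receptor, was at 32.6 and 38.8 CPM. Fgf7, a growth factor for epithelium, was at 108 and 65.2 CPM and Igf1 at 370 and 245 CPM. Of 25 and 23 growth factor and Wnt regulator genes compared, 21 and 22 were higher than in Ptprc cells, and none lower. In both other classes 9 and 9 of them were under 10 CPM. Igfbp5 went the other way against epithelium, with 760 and 927 CPM in collagen cells and 5542 and 4316 CPM in Epcam cells without Ptprc.

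The complement genes split by role. C3, the central component, was at 1906 and 1886 CPM against 30.9 and 10.4 CPM in Ptprc cells. C1s1, a protease of the C1 complex, was at 959 and 803 CPM, and Serping1, the inhibitor of that complex, at 1426 and 1704 CPM. The C1q chains were lower: C1qa had 22 and 17 UMIs, or 14.3 and 15.0 CPM, against 2745 and 861 CPM in Ptprc cells. Over the list, 9 and 10 of 17 genes compared were higher and 6 and 6 lower, and 5 and 5 were under 10 CPM in both other classes. Cfd, factor D of the alternative pathway, was at 0 UMIs in both matrices, which allows up to 1.96 and 2.64 CPM.

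Antigen presentation genes were mostly lower than in Ptprc cells (11 of 17 and 8 of 15, with 1 and 1 higher). B2m, the light chain of MHC class I, was 0.517 and 0.686 times the level in Ptprc cells. Nucleic acid sensing and interferon genes showed few differences, with 0 of 24 higher or lower in the CD11c-selected matrix and 1 higher and 2 lower in the other. Ifitm3, an interferon-induced membrane protein, was that 1 gene, at 2664 CPM against 180 CPM in Ptprc cells. Ifi205, an interferon-inducible gene of the Ifi200 family, was outside that list and was at 669 and 681 CPM in 71.0% and 71.2% of members, against 37.7 and 2.74 CPM in Ptprc cells. Ifi208 of the same family and Ifnb1, interferon beta, were at 0 UMIs in both.

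Genes of dissociation and heat shock, which tissue digestion is known to induce, were present in every class. Of 16 compared, 2 and 5 were higher than in Ptprc cells, and their sum was 11471 and 13753 CPM in collagen cells, 8888 and 6153 CPM in Ptprc cells and 12806 and 14469 CPM in Epcam cells without Ptprc. Egr1, an immediate early gene, was 6.14-fold and 21.2-fold above Ptprc cells, and the part of digestion in the cytokine levels was not tested.

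The study concerns coagulation signaling, and collagen cells carried transcripts of its receptors and of its initiator. F2rl1, which encodes PAR2, had 35 UMIs in 13 CD11c-selected members (22.8 CPM, 15.9 to 31.7) and 26 UMIs in 8 CD4/CD8-selected members (22.9 CPM, 15.0 to 33.6). Epcam cells without Ptprc stood at 55.6 and 49.0 CPM and Ptprc cells at 0.869 and 8.78 CPM. Over all runs collagen cells lay between them in both matrices. F2rl1 was found in 0.576% and 4.44% of Ptprc cells and in 31.4% and 30.3% of Epcam cells without Ptprc. After thinning to 2000 UMIs it was found in 1 of 81 and 2 of 73 collagen cells and in 0% and 1.6% of Ptprc cells, so that the shares of cells could not be told apart at that depth. Run 3 of the CD11c-selected matrix held 22 of the 35 F2rl1 UMIs, and without it F2rl1 was at 11.9 CPM (6.35 to 20.4). Without run 3 of the CD4/CD8-selected matrix F2rl1 had 10 UMIs there, at 16.9 CPM (8.12 to 31.1). That interval reached below the 8.78 CPM of Ptprc cells. F2r, which encodes the thrombin receptor PAR1, was at 121 (104 to 140) and 86.4 CPM (70.1 to 105), against 1.15 and 44.1 CPM in Ptprc cells and 7.07 and 5.49 CPM in Epcam cells without Ptprc. Run 3 of the CD11c-selected matrix held 114 of the 186 F2r UMIs there, and without it F2r was at 66.0 CPM (51.6 to 83.1). In the CD4/CD8-selected matrix F2r was at 61.8 CPM (46.0 to 81.2) without run 5, against the 44.1 CPM of Ptprc cells.

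F3, tissue factor, the cellular initiator of coagulation, was at 265 CPM (240 to 292) in the CD11c-selected and 118 CPM (98.9 to 140) in the CD4/CD8-selected collagen cells. Epcam cells without Ptprc had 259 and 309 CPM. F10, the factor X gene, was at 0 UMIs among 1534056 and 1134905 UMIs, which allows up to 1.96 and 2.64 CPM, while Ptprc cells had 45.7 and 2.24 CPM. F7, factor VII, had 0 and 1 UMIs.

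Regulators of coagulation and fibrinolysis were transcribed alongside. Plat, the tissue plasminogen activator, was at 581 and 471 CPM against 7.57 and 2.14 CPM in Ptprc cells, and in 89.2% and 89.0% of members. Procr, the endothelial protein C receptor, was at 224 and 219 CPM, and Thbd, thrombomodulin, at 162 and 159 CPM. Over the list, 15 of 22 genes were higher than in Ptprc cells and 3 lower in the CD11c-selected matrix, and 13 of 19 higher and 1 lower in the other. In both other classes 5 and 5 of them were under 10 CPM.

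Of 23 TGF-beta and BMP pathway genes compared in each matrix, 15 and 14 were higher than in Ptprc cells and 2 and 1 lower. In both other classes 4 and 4 of them were under 10 CPM. Of the ligands, Tgfb1 was below Ptprc cells by less than 4-fold, with 65.8 and 65.2 CPM against 238 and 203 CPM, and Tgfb2 and Tgfb3 were above them. Tgfb2 was at 130 and 79.3 CPM against 1.08 and 0.532 CPM, and Tgfb3 at 46.9 and 63.4 CPM against 10.1 and 2.58 CPM. Tgfb3 was at a like level in Epcam cells without Ptprc (65.6 and 66.6 CPM). Thbs1, thrombospondin 1, an activator of latent TGF-beta, was at 1729 and 974 CPM in collagen cells against 437 and 35.9 CPM in Ptprc cells.

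Many defining markers of epithelial cells, T cells, macrophages, neutrophils, adipocytes and Schwann cells had few or 0 UMIs. Pericyte, smooth muscle and endothelial markers did not follow this and are given further below. Elf5, Krt14 and Krt5 were at 0 UMIs in both matrices, and 11 of 11 and 12 of 12 epithelial markers compared, leaving out the rule gene Epcam, were lower than in Epcam cells. Cd3e of T cells had 0 and 2 UMIs, and 11 of 11 T cell markers compared in the CD4/CD8-selected matrix were lower than in Ptprc cells. The 13 macrophage markers besides the rule gene Ptprc were lower than in Ptprc cells in both matrices, although Lyz2, the abundant lysozyme of macrophages, had 66 and 71 UMIs in 48.4% and 39.7% of members. After each cell with at least 2000 UMIs was thinned to 2000, Lyz2 was found in 8.64% of 81 and 9.59% of 73 members. In Ptprc cells it was found in 83.6% and 13.7%. The adipocyte markers Adipoq, Plin1, Cidec and Lep and the neutrophil marker S100a9 were at 0 UMIs, and 4 and 5 of 6 neutrophil markers were at 0. Schwann cell markers summed to 38.5 and 20.3 CPM and adipocyte markers to 9.78 and 14.1 CPM, with 0 of either list higher than in Ptprc cells. Cycling markers summed to 297 and 258 CPM, against 665 and 919 CPM in Ptprc cells, with 2 and 4 of 13 lower.

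A single CD11c-selected member stood apart. It held 581 UMIs of the 14 epithelial markers, 579 of them Csn3, a milk casein, whereas the next highest member held 7. This cell had 46777 UMIs, of which 15 were Pdgfra, 61 Dcn and 0.0641% the rule collagens, the lowest share of any member. It held 581 of the 741 epithelial marker UMIs of the CD11c-selected members, whose sum was 483 CPM, against 78.4 CPM in the CD4/CD8-selected ones. Csn3 is given with and without this cell below.

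The members were not of 1 kind. Over the whole set, 12 of 12 and 11 of 12 fibroblast markers outside the rule were higher than in Ptprc cells. So were 9 of 9 and 11 of 11 pericyte, 3 of 3 and 5 of 5 smooth muscle and 2 of 3 and 3 of 4 endothelial markers. Under 10 CPM in both other classes were 6 and 6 fibroblast, 6 and 8 pericyte, 2 and 4 smooth muscle and 2 and 3 endothelial markers. Those could pass the filter only by being higher in collagen cells. Fibroblast and pericyte markers did not fall in the same cells. Pdgfra, the PDGF receptor of fibroblasts, without Rgs5, a regulator of G protein signaling in pericytes, was found in 56 CD11c-selected members (60.2%, 49.5 to 70.2%) and 45 CD4/CD8-selected ones (61.6%, 49.5 to 72.8%). Rgs5 without Pdgfra was found in 19 (20.4%, 12.8 to 30.1%) and 17 (23.3%, 14.2 to 34.6%). Both were found in 2 and 3 members and neither in 16 and 8. This split was chosen after the values were seen and these groups are called Pdgfra cells and Rgs5 cells here. The name fibroblast therefore holds for the Pdgfra cells by their markers and goes against the markers of the Rgs5 cells.

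Sums of markers that did not define the split did not overlap between these groups. The fibroblast sum took 7 markers (Dcn, Lum, Dpt, Pdpn, Serpinf1, Mmp2 and Fbn1) and left out Pdgfrb, Thy1, Fap and Pcolce of the same list. That list has 15 markers with the rule genes and Pdgfra. Of these, 8 were 4-fold or more higher in Pdgfra cells in both matrices, and 1 in Rgs5 cells. In the CD11c-selected matrix the sums were 33.1 to 295 per 10,000 UMIs of a cell (median 155) in Pdgfra cells. They were 0 to 23.7 (median 8.39) in Rgs5 cells. In the CD4/CD8-selected matrix they were 54.6 to 324 (median 169) and 1.27 to 26.5 (median 5.55). The 33.1 belonged to the member with 581 epithelial marker UMIs, and the next lowest was 58.7. The 10 pericyte markers other than Rgs5 summed to 15.2 to 94.9 and 14.6 to 95.3 per 10,000 UMIs in the Rgs5 cells, and to 0 to 7.68 and 0 to 10.7 in the Pdgfra cells. The ranges of these 2 groups were separate for both sums in both matrices. Members with neither gene belonged to no group, and their fibroblast sums ran from 0 to 179 and from 3.83 to 288 per 10,000 UMIs. How often sums of other genes would also be separate was not counted, so nothing more is read from the gap.

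**Figure D3:**
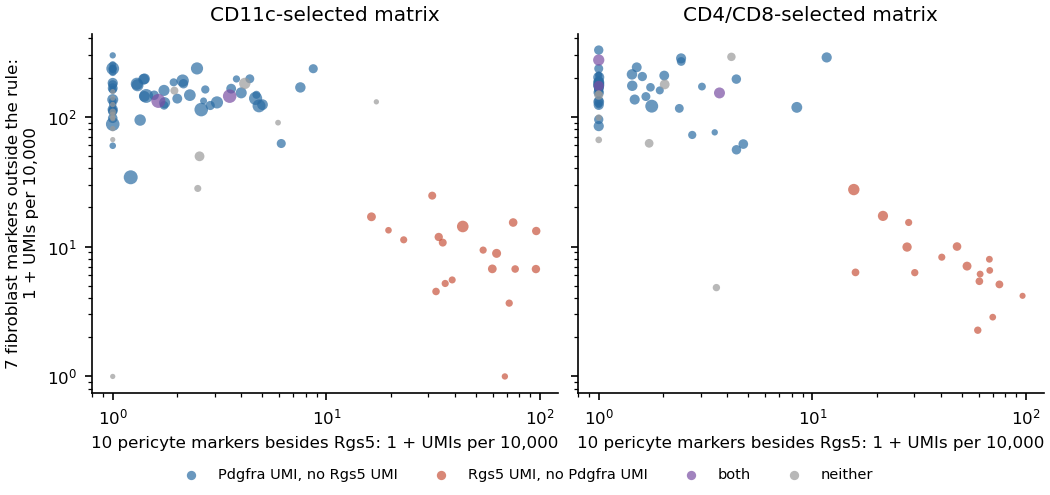
Each point is a collagen cell, placed by the sum of 10 pericyte markers besides Rgs5 and the sum of 7 fibroblast markers outside the rule, both as 1 + UMIs per 10,000 on log axes, colored by Pdgfra and Rgs5 and sized by the UMIs of the cell. Pdgfra cells lie high on the fibroblast axis (33.1 to 295 and 54.6 to 324 per 10,000) and Rgs5 cells low on it (0 to 23.7 and 1.27 to 26.5), with no overlap. Cells with neither gene spread over both ranges (0 to 179 and 3.83 to 288). The 7 markers are a part of the fibroblast list, and the 33.1 is the member with 581 epithelial marker UMIs.

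The groups also differed in depth and collagen share. Pdgfra cells had median UMIs of 18928.5 and 17590, and Rgs5 cells 10285 and 7875. The rule collagens took a median of 3.40% and 2.67% of a Pdgfra cell's UMIs and 0.449% and 0.570% of an Rgs5 cell's, and mitochondrial transcripts a median of 4.97% and 3.86% against 8.84% and 7.18%. Thinning to 2000 UMIs covered the 81 and 73 members with at least that many. Rgs5 was then found in 19 of 81 (23.5%) and 16 of 73 (21.9%), against 21 of 93 (22.6%) and 20 of 73 (27.4%) before. Pdgfra dropped to 28.4% and 23.3% of the thinned members, from 62.4% and 65.8% of all members. A cell without Pdgfra UMIs can thus be a shallow cell, and 10 of the 16 CD11c-selected members with neither gene had under 2000 UMIs. Of the 8 CD4/CD8-selected members with neither gene 0 did, and these held 3199 to 19311 UMIs.

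Rgs5 cells occurred in most runs. They were in 5 of the 6 CD11c-selected runs and in 4 of the 6 CD4/CD8-selected runs. Run 6 of the CD11c-selected matrix held 10 Rgs5 cells and 3 Pdgfra cells, while runs 1 to 3 held 2, 2 and 4 Rgs5 cells and 20, 11 and 19 Pdgfra cells. The mixture therefore differed between runs, and levels over all members differ with it.

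Of 8097 genes compared, 254 (3.14%) were 4-fold or more higher in Rgs5 cells in both matrices and 201 (2.48%) were 4-fold or more higher in Pdgfra cells in both. The 10 pericyte markers besides Rgs5, which set the split, were among the former. Mcam, an adhesion molecule of vessel walls, had 156 and 86 UMIs in Rgs5 cells and 1 and 1 in Pdgfra cells. Higd1b, a mitochondrial protein typical of pericytes, had 150 and 70 UMIs against 0 and 0. Notch3, the Notch receptor of mural cells, was at 563 and 387 CPM against 5.18 and 1.25 CPM, in 18 of 19 and 16 of 17 Rgs5 cells. Des, the muscle intermediate filament desmin, was at 408 and 567 CPM against 1.73 and 8.75 CPM.

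Over the whole set, 9 of 11 and 10 of 12 contractile genes were higher than in Ptprc cells, and 4 and 4 were under 10 CPM in both other classes. Against Epcam cells without Ptprc 1 of 11 and 5 of 12 were, with sums of 2332 and 3334 CPM in collagen cells and 2030 and 1850 CPM in those cells. The share of all genes compared was not taken for that contrast, so nothing is read from its counts. Between the groups, 11 of 13 compared were higher in Rgs5 cells in both matrices. Acta2, smooth muscle actin, had 224 UMIs in 16 of 19 CD11c-selected Rgs5 cells (1088 CPM) and 868 UMIs in 12 of 17 CD4/CD8-selected ones (4869 CPM), against 27.6 and 91.3 CPM in Pdgfra cells. A single CD4/CD8-selected Rgs5 cell held 560 of the 868, together with 216 Tagln UMIs and only 3 Rgs5 UMIs. Myh11, the smooth muscle myosin heavy chain, had 89 and 36 UMIs in Rgs5 cells and 0 and 0 in Pdgfra cells, while Cnn1, calponin 1 of smooth muscle, was at 0 in all members.

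Basement membrane collagens were on the Rgs5 side. Col4a1 was at 5872 and 4095 CPM in Rgs5 cells and 969 and 711 CPM in Pdgfra cells, and Col4a2 and Col18a1 were higher by ratios of 7.05 and 10.4 in the CD11c-selected matrix and 6.44 and 9.30 in the other. Serpine2, protease nexin 1, which inhibits thrombin, was at 4386 and 1806 CPM against 197 and 87.5 CPM. Pdgfa, a PDGF ligand, was at 437 and 376 CPM against 12.1 and 43.8 CPM, and Procr was 4.47-fold and 4.65-fold higher, in 6 of 19 and 6 of 17 cells. Of 6 endothelial markers compared, Esam, Flt1 and Emcn were higher in Rgs5 cells in both matrices. Esam had 65 and 60 UMIs in Rgs5 cells and 0 and 5 in Pdgfra cells, and Flt1 was at 301 and 269 CPM against 16.4 and 17.5 CPM, but Cldn5 was at 0, Cdh5 at 0 and Pecam1 at 6 and 0 UMIs in them.

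Cycling markers were concentrated in few cells. Members with at least 3 Mki67 UMIs, a proliferation antigen, numbered 4 and 5, and 1 CD11c-selected Rgs5 cell held 26 of the 54 Mki67 UMIs of its matrix and 219 cycling marker UMIs, against 73 in the next cell. Rgs5 cells held 53 of those 54 UMIs, in 7 cells. The CD4/CD8-selected matrix differed, with 13 of its 30 Mki67 UMIs in 5 Pdgfra cells, 5 in 1 Rgs5 cell and 12 in 1 member with neither gene, and with at most 71 cycling marker UMIs in a Pdgfra cell and 57 in an Rgs5 cell.

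Genes on the Pdgfra side included many adventitial and proteoglycan genes. Of 14 universal and adventitial fibroblast genes, 10 were higher in Pdgfra cells in both matrices and 0 in Rgs5 cells, and so were 9 of 18 proteoglycans and 13 of 28 growth factor and Wnt regulator genes. Of 14 complement genes compared 3 were. Dcn was at 6526 and 8612 CPM in Pdgfra cells, found in 56 of 56 and 45 of 45, and at 112 and 61.7 CPM in Rgs5 cells. C3 had 2682 and 1584 UMIs in Pdgfra cells and 0 and 0 in Rgs5 cells, at least 159-fold and 118-fold higher against a floor of 3 UMIs. Pi16, a peptidase inhibitor of adventitial fibroblasts, was found in 47 of 56 and 36 of 45 Pdgfra cells and in 0 Rgs5 cells, at least 59.4-fold and 43.8-fold higher.

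Several secreted factors were found mainly in Pdgfra cells. Mmp3 had 1343 and 1078 UMIs there (1159 and 1348 CPM) and 0 and 0 in Rgs5 cells, and Ptx3, a soluble pattern recognition protein, 1975 and 1488 against 1 and 0. Cxcl12 was at 714 and 554 CPM against 9.71 and 72.9 CPM, and Igf1 at 446 and 283 CPM against 0 and 5.61 CPM. F3 was at 333 and 104 CPM against 43.7 and 5.61 CPM. Il6 did not separate the groups in the CD11c-selected matrix (1273 CPM in Rgs5 and 1086 CPM in Pdgfra cells, ratio 1.17, 1.02 to 1.34) and was 3.95-fold higher in Rgs5 cells of the other (3.39 to 4.60). F2r was at a like level in the 2 groups, with ratios of 1.20 (0.793 to 1.77) and 1.14 (0.649 to 1.90). F2rl1 had 33 and 23 UMIs in Pdgfra cells (28.5 and 28.8 CPM) and 1 and 0 in Rgs5 cells, where 3 UMIs of the CD4/CD8-selected cells would be 16.8 CPM. The 95% intervals of the ratio of Rgs5 to Pdgfra cells were 0.00419 to 1.02 and 0 to 0.781, so that the first did not set the groups apart at this depth.

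Within the Pdgfra cells, Cilp, a cartilage intermediate layer protein secreted into matrix, was found in 29 of 56 CD11c-selected and 13 of 45 CD4/CD8-selected cells, at up to 340 and 297 UMIs in a cell. Splitting the Pdgfra cells by Cilp was also chosen after the values were seen. Cells with Cilp had median UMIs of 22891 and 18674, and cells without it 16137 and 17316, so the former were somewhat deeper in the CD11c-selected matrix. Counts of cells with a UMI are read with this gap in view, and the levels below are in CPM.

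F2rl1 UMIs lay almost wholly in the cells with Cilp. In the CD11c-selected matrix these had 31 UMIs in 9 of 29 cells (46.5 CPM, 31.6 to 66.1) and the cells without Cilp 2 UMIs in 2 of 27 (4.06 CPM, 0.491 to 14.7). In the CD4/CD8-selected matrix they had 23 UMIs in 7 of 13 cells (87.5 CPM, 55.4 to 131) and the cells without Cilp 0 UMIs in 32 cells, which allows up to 5.59 CPM by 3 UMIs. Over both matrices 54 of 56 UMIs lay in 16 of 42 cells with Cilp and 2 in 2 of 59 cells without it. The highest single cell held 11 and 15 of the UMIs. With each run left out in turn the ratio of the levels, with sums below 3 UMIs set to 3, was 3.14 to 7.93 and 2.92 to 19.5, lowest without run 3 in each matrix. By Cilp level, cells with 1 to 19 Cilp UMIs had F2rl1 at 35.7 and 21.5 CPM and cells with 20 or more at 51.0 and 124 CPM.

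F2r was divided in the same way. Cells with Cilp had 147 UMIs in 19 of 29 cells (221 CPM, 186 to 259) and 71 in 10 of 13 (270 CPM, 211 to 341), and cells without it 3 UMIs (6.09 CPM, 1.25 to 17.8) and 4 UMIs (7.45 CPM, 2.03 to 19.1). The ratio of 36.3 and 36.2 became 15.1 and 19.1 without run 3, its lowest values with a run left out. F3 was at 459 and 194 CPM with Cilp and 162 and 59.6 CPM without, Tgfb3 at 78.1 and 129 CPM against 6.09 and 16.8 CPM, and Thbs1 at 2471 and 1433 CPM against 1365 and 704 CPM. For Thbs1 in the CD4/CD8-selected matrix the ratio of 2.04 became 1.09 without run 3 and 3.31 without run 2, and for Tgfb3 in the CD11c-selected matrix the ratio of 12.8 became 5.97 without run 3.

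Other genes with a higher level beside Cilp, chosen after their values were seen, were as follows. Thbs4, a thrombospondin of tendon, had 568 and 146 UMIs with Cilp and 0 and 0 without. Col8a1, a short-chain collagen, was at 1147 and 856 CPM against 2.03 and 11.2 CPM, and Mgp, matrix Gla protein, at 8767 and 12852 CPM against 1008 and 1533 CPM. Postn was at 4142 and 4323 CPM against 1107 and 1011 CPM. Ltbp2, a latent TGF-beta binding protein relative, was at 252 and 190 CPM against 20.3 and 3.72 CPM. Tagln, an actin-binding contractile protein, was at 209 and 304 CPM against 4.06 and 9.31 CPM, but 60 of its 139 and 52 of its 80 UMIs lay in 1 cell each. The Tagln ratio of 34.3 in the CD11c-selected matrix became 17.3 without run 3, and the ratio of 32.7 in the other became 19.3 without run 5.

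Cells without Cilp carried more of other secreted genes. Igfbp5 was at 1933 and 1864 CPM without Cilp and 309 and 118 CPM with it, with 553 of 953 and 276 of 1001 UMIs in 1 cell each. Apoe, the lipid carrier apolipoprotein E, was at 1203 and 803 CPM against 107 and 281 CPM. Adm, the vasodilator peptide adrenomedullin, had 94 and 44 UMIs against 29 and 1. Pi16 differed little and in opposite directions, with 932 against 777 CPM in the CD11c-selected and 643 against 784 CPM in the CD4/CD8-selected cells with and without Cilp.

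**Figure D4:**
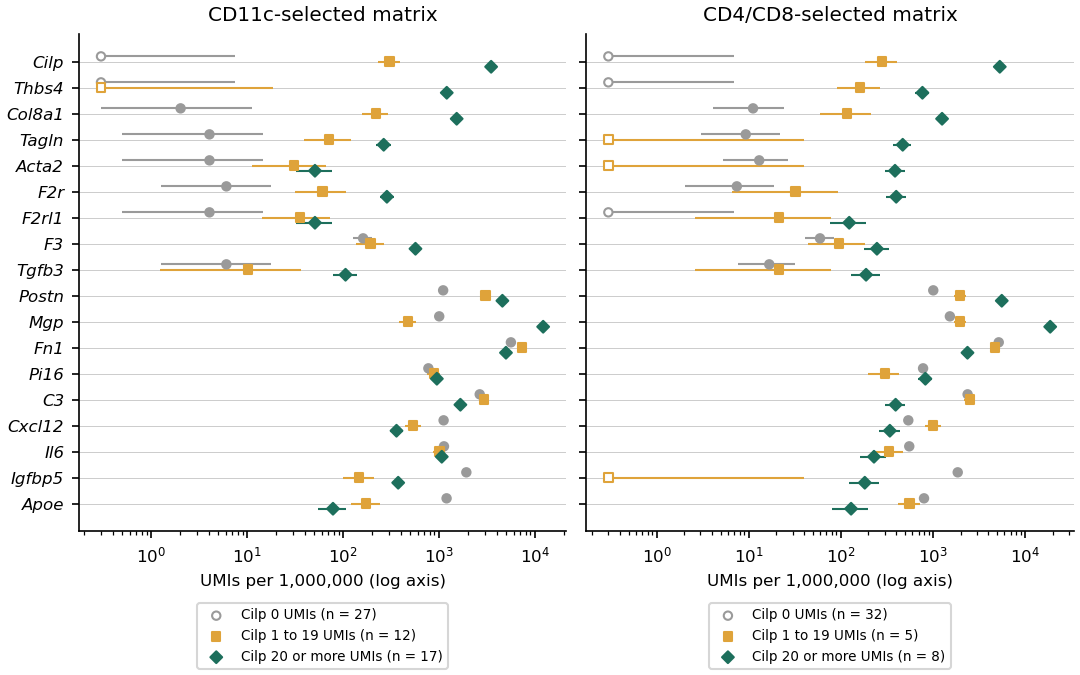
Level of named genes in Pdgfra cells with 0, 1 to 19 and 20 or more Cilp UMIs in each matrix, in UMIs per 1,000,000 on a log axis with 95% exact Poisson intervals, and open symbols at the left for sums of 0 UMIs. F2rl1 stood at 4.06, 35.7 and 51.0 CPM in the CD11c-selected matrix and at 0, 21.5 and 124 CPM in the other, while Igfbp5 was highest in the cells with 0 Cilp UMIs.

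Side by side, the collagen cells of the matrices were close. Of 5946 genes with at least 50 UMIs over both, 5726 (96.3%) were within 2-fold, 22 (0.37%) were 4-fold or more higher in the CD11c-selected members and 7 (0.118%) in the CD4/CD8-selected ones. Sparc had a ratio of 1.01 (0.980 to 1.04) and C3 of 1.01 (0.950 to 1.07) when the member with the most UMIs of the gene was left out of each matrix.

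Several of the widest gaps toward the CD11c-selected members came from 1 cell. Csn3 had 615 and 19 UMIs, and without the top member of each matrix its ratio was 1.58 (0.867 to 3.01). Lcn2, a siderophore-binding protein, and Trf, transferrin, likewise came to 1.30 (0.613 to 2.91) and 1.79 (1.14 to 2.89), and Chil1 and Clca3a2 had 1 UMI each left in the CD11c-selected members. In the other direction, Ly6d had 72 of its 139 UMIs and Myoc 67 of its 88 in 1 CD4/CD8-selected member each. Without the top members Ly6d was still at 59.7 CPM in the CD4/CD8-selected and 0.664 CPM (1 UMI) in the CD11c-selected members, and Myoc at 18.8 and 0.667 CPM (1 UMI). Acta2 was higher in the CD4/CD8-selected members by 2.53-fold without the top members, down from 832 against 171 CPM.

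Other gaps remained 4-fold or wider without the top members. Igfbp3, an IGF binding protein, was at 273 and 26.4 CPM, with UMIs in 29 and 13 members and a ratio of 10.3 (6.65 to 16.6) without the top members. Il11, a cytokine of the IL-6 family, was at 51.5 and 5.29 CPM in 23 and 5 members (7.42, 2.68 to 28.6), 39 of the 79 UMIs being in 1 member. Adh1, an alcohol dehydrogenase, was at 12.4 and 59.0 CPM in 10 and 23 members, 5.29-fold higher in the CD4/CD8-selected ones without the top members. H2-Ab1, an MHC class II chain, was at 41.1 CPM in 40 CD11c-selected members and 3.52 CPM in 3 CD4/CD8-selected ones. Ptprc cells carried H2-Ab1 at 7965 and 506 CPM in the same matrices, and the part of free RNA in this gap was not tested.

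The coagulation initiator F3 was among the genes with a higher level in the CD11c-selected members. Without the top members, F3 had a ratio of 2.51 (1.99 to 3.18), Thbs1 of 1.84 (1.70 to 1.99) and Il6 of 1.60 (1.46 to 1.75). The runs overlapped: over runs with at least 10 members, F3 was at 52.1 to 381 CPM in 4 CD11c-selected runs and 90.8 to 145 CPM in 3 CD4/CD8-selected runs, and Il6 at 399 to 1400 and 435 to 1031 CPM. Dcn was lower in the CD11c-selected members, with a ratio of 0.728 (0.706 to 0.751) and run ranges of 2099 to 7171 and 6404 to 9057 CPM.

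**Figure D5:**
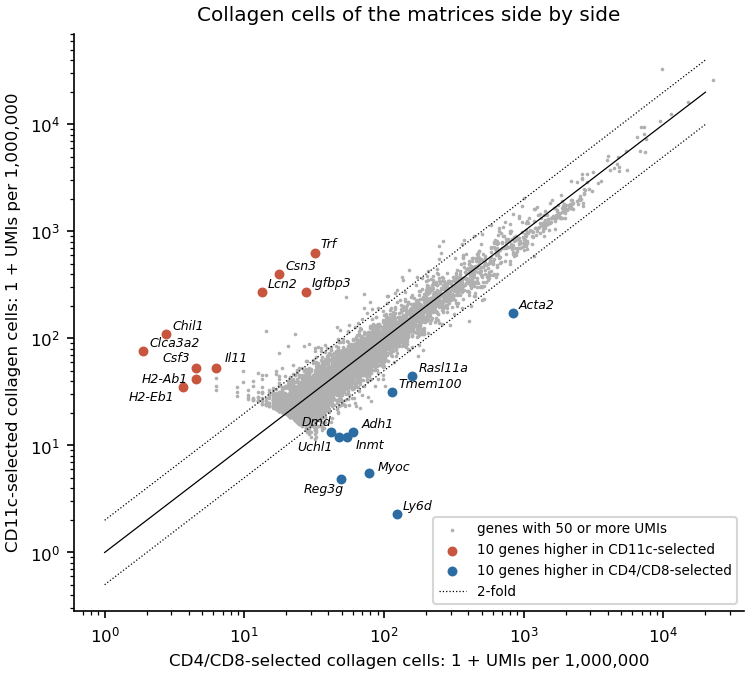
Level of each gene with at least 50 UMIs in the CD4/CD8-selected (horizontal) and CD11c-selected (vertical) collagen cells, as 1 + UMIs per 1,000,000 on log axes, with lines at equal levels and at 2-fold, and the 10 widest gaps each way in color. Most genes (96.3%) lie between the 2-fold lines.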

How the data were processed

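Single-cell gene expression was measured on the 10x Genomics platform. The authors deposited 1 filtered matrix of raw UMI counts per gene and cell for each selection, pooling 6 samples, and the submitters' processing notes name Cell Ranger 3.0.2 and mm10. Counts were used as deposited, in Python 3.11.15 with numpy 2.4.6, pandas 2.3.3, scipy 1.17.1 and matplotlib 3.10.9. Barcodes were required to show 200 or more genes, and no doublet caller was run. UMIs were summed over each class of cells and given per 1,000,000. With 1 sample per matrix no test was possible. Shares of cells were also taken after thinning each cell with at least 2000 UMIs to 2000, for which 1000 Ptprc cells were drawn.

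The members and the 28 gene lists were chosen with earlier results of these data known. Genes named were the 20 leading ones found in at least 25% of members of both matrices, ranked by their smallest ratio over 4 comparisons, 5 per list, and the 10 with the widest gap each way between matrices with at least 50 UMIs. Genes named for the Pdgfra, Rgs5 and Cilp splits, and other single genes, were chosen after their values were seen. Alternatives were other collagen, gene and mitochondrial limits, means over cells, narrower comparison classes, no filter on level, no thinning and leaving out each barcode run. The collagen cells' 1534056 and 1134905 UMIs set the precision.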

Additional observations from a re-analysis of the deposited data

How the results depend on the processing

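Leaving out each barcode run in turn gave 58 to 92 CD11c-selected and 40 to 72 CD4/CD8-selected collagen cells, with the fewest (58 and 40) without run 3. Over the same settings the genes 4-fold or more higher than in Ptprc cells numbered 1023 to 1054 and 1263 to 1399, those lower 813 to 836 and 795 to 857, those higher than in Epcam cells 730 to 789 and 775 to 896, and those lower 824 to 866 and 758 to 894. With no filter on the level of genes, 2892 and 3100 genes were higher than in Ptprc cells, against 1038 and 1317, and 1750 and 1742 higher than in Epcam cells, against 759 and 801. Without thinning, Pdgfra was found in 62.4% and 65.8% of members against 28.4% and 23.3%, Acta2 in 31.2% and 30.1% against 11.1% and 16.4%, Postn in 87.1% and 82.2% against 71.6% and 68.5%, and Dpt in 79.5% of CD4/CD8-selected members against 63.0%.

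Of 9364 values of genes under alternatives, 9078 kept their direction and their side of the 4-fold limit. Another 279 crossed that limit or changed direction from a main value under it. The remaining 7 changed direction from a main value of 4-fold or more. A value could change in size and still be among the 9078. Csn3 in CD11c-selected collagen cells over Ptprc cells became -1.66 on the log2 scale with collagens at 4 UMIs or more, -1.72 without run 4 (up to 3.32 with another run left out) and -1.63 without the member rich in epithelial markers, an alternative chosen after seeing the data. With means over cells, Krt18 and Krt8 over Ptprc cells became 2.59 and 0.43 in the CD11c-selected matrix. With cells of both markers or the collagens left out of the comparison classes, Krt8 became 0.036 there and C1qa over Epcam cells 0.50 in the CD4/CD8-selected matrix. The member with 579 Csn3 UMIs was in run 4 and had 3 Col1a1 UMIs, so the negative Csn3 values all came from settings that left it out. The cause of the other changes was not tested. No paired analysis was possible because no map from cells to samples was used here and no test was run. The member totals allow up to 1.96 and 2.64 CPM for a gene at 0 UMIs.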
